A study of Mus musculus with 10 samples.

Results

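The AMPA and NMDA receptor subunits were 10 genes taken by symbol from the table of ventral hippocampus (vHpc) expression, out of 24421 symbols in all: the 4 AMPA receptor subunits Gria1, Gria2, Gria3 and Gria4 and the 6 NMDA receptor subunits Grin1, Grin2a, Grin2b, Grin2c, Grin2d and Grin3a. All 10 passed the filter on low values, a mean of at least 0.5 CPM, which kept 15081 genes for testing. Female C57/BL6 mice were ovariectomized (OVX) at about 70 to 80 days of age, recovered for 2 weeks and then drank vehicle (0.1% ethanol) or 17β-estradiol (E2, 300 nM in 0.1% ethanol, 0.7 µg per day) for 6 weeks. OVX WT mice carried the wild-type Bdnf gene, and OVX Het-Met mice carried a single copy of the BDNF Val66Met knock-in allele in every cell. Of the 10 libraries, 4 came from OVX WT mice, with replicates 1 and 3 under vehicle and replicates 1 and 2 under E2, and 6 from OVX Het-Met mice, with replicates 1 to 3 under each treatment. RNA of 2 animals was combined in every library, so the spread is that between pools. All of these mice were ovariectomized, so no group had intact ovaries. Reads counted on genes numbered between 19820184 and 23267410 per library, and CPM are reads per 1000000 of these.

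Ionotropic glutamate receptors carry most fast excitatory transmission in the hippocampus. AMPA receptors, built from the Gria products, open at once on glutamate and set the size of the synaptic response, and those that contain an edited Gria2 product let little calcium through. NMDA receptors combine the obligatory Grin1 product with Grin2 or Grin3 products, need a co-agonist and depolarization to open, and let in the calcium that starts synaptic plasticity. The comparisons asked whether the Met allele and E2 add-back were accompanied by a different level of these transcripts.

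The site in the pore loop that sets calcium entry is shown first for 6 of the members, because it is where they differ in function most directly, and because it shows what gene counts cannot resolve. Each line gives 45 bases of the coding strand from the GENCODE vM21 transcripts of GRCm38 (mm10), 5′ to 3′, with the codon of the pore site in capitals.
Gria1: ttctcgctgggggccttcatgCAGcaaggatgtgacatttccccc
Gria2: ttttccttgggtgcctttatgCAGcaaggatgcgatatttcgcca
Gria3: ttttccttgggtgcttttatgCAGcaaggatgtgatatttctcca
Gria4: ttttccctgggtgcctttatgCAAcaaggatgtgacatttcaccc
Grin1: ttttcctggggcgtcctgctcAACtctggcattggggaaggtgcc
Grin2a: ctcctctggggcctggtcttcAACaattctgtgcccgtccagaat

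The stretches lie at chr11:57243073-57243117 (plus strand, exon 11 of Gria1), chr3:80706890-80706934 (minus strand, exon 11 of Gria2), chrX:41610244-41610288 (plus strand, exon 11 of Gria3) and chr9:4464116-4464160 (minus strand, exon 12 of Gria4). Those of the NMDA receptor genes lie on the minus strand at chr2:25297292-25297409 (exons 14 and 15 of Grin1, with an intron between them) and chr16:9653540-9653584 (exon 10 of Grin2a). The genome encodes glutamine at this site in all 4 Gria genes, and in Gria2 the middle A is converted by adenosine deaminases in the RNA so that the codon is read as arginine. Gria2 and Gria3 shared 42 of the 45 bases and Grin1 and Grin2a 18 of 45, whereas Gria3 and Grin2a shared 11. The longest run of identical bases between the longest coding transcripts of any pair of members was 41 bases, between Gria2 and Gria4, which is shorter than a 75-bp read. Counts per gene hold neither the edited share nor the splice forms of any member. Exons of Grin1 share 13.5% of their bases with the opposite-strand gene Grin1os and those of Grin2d share 9.66% with Gm45441, and the strand setting of the counting is not given in the sources used here, so part of these 2 values could belong to the neighbour.

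Subunit levels spanned more than 2 orders of magnitude per length of transcript. On the scale of CPM per kb of the longest coding transcript, Gria1 was the highest at 226 ± 14.4 (SD, n = 10 libraries), followed by the obligatory NMDA receptor subunit Grin1 at 102 ± 6.71 and Gria2 at 88.7 ± 6.09. Gria3 stood at 49.6 ± 1.65 and Gria4 at 18.3 ± 1.68 CPM per kb. Below them were Grin2c at 10.98 ± 0.774, Grin3a at 9.60 ± 0.908, Grin2d at 3.42 ± 0.39, Grin2b at 1.87 ± 0.895 and Grin2a at 1.31 ± 0.446 CPM per kb. The ranges over libraries overlapped for the neighbours Grin1 and Gria2, Grin2c and Grin3a, Grin2d and Grin2b, and Grin2b and Grin2a, but within a library Grin1 was above Gria2 and Grin2b above Grin2a in 10 of 10, and Grin2c above Grin3a and Grin2d above Grin2b in 9 of 10. Per kb of all annotated exons Grin1 was above Gria2 in 0 of 10 libraries, so their order depends on the length used. Grin2a and Grin2b, the subunits that pair with Grin1 in most forebrain NMDA receptors, thus had the lowest levels per length, and they have the longest transcripts of the members (14.6 and 24.1 kb), of which 67.9% and 78.4% lie after the coding sequence. In CPM not divided by length, Grin2d was the lowest at a mean of 18.6, with Grin2a at 19.2 and Grin2b at 45.0. The place of Grin2a and Grin2b below Grin2d therefore also depends on the division by length. Grin2a rested on 215 to 625 reads and Grin2b on 473 to 1966 reads per library, against 23587 to 30398 for Gria1.

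**Figure D1:**
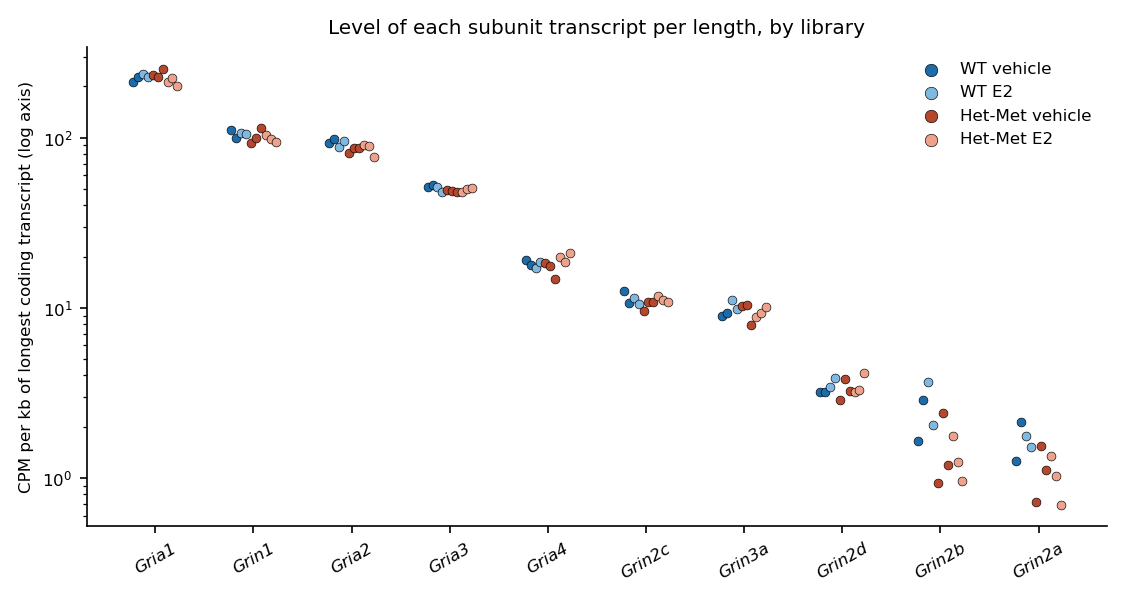
Level of each subunit transcript in CPM per kb of the longest coding transcript (log axis), with a point for each of the 10 libraries coloured by group and subunits ordered by their mean. Gria1 leads at a mean of 226 CPM per kb, and Grin2b and Grin2a are lowest and most scattered.

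The spread among libraries set Grin2a and Grin2b apart from the other members. Grin2b varied 3.93-fold between its lowest and highest library and Grin2a 3.04-fold, while the other 8 members varied between 1.1-fold (Gria3) and 1.45-fold (Grin2d). As a coefficient of variation over the 10 libraries this was 47.8% for Grin2b and 34.1% for Grin2a, and between 3.31% and 11.4% for the others.

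Genotype was compared first, over both treatments together. Of the 10 members, 0 differed by genotype at an adjusted p under 0.05 with a fold change above 1.3 (limma), where 4 of 15081 genes did (0.0265%). At an unadjusted p under 0.05, 3 members were lower in OVX Het-Met mice and 0 were higher, against 16.6% of all genes in either direction and 7.27% of all genes lower. These were the NMDA receptor subunits Grin2b and Grin2a and the AMPA receptor subunit Gria2. The median log2 fold change of the 10 members was -0.06 and that of all genes tested 0.02.

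Grin2b (chromosome 6, 135713233 to 136173511, minus strand) encodes the subunit that prevails early in development and stays abundant in the adult forebrain. It had 39.4 and 69.3 CPM in vehicle-treated and 88.2 and 49.3 CPM in E2-treated OVX WT libraries. OVX Het-Met libraries had 22.4, 57.9 and 28.8 CPM under vehicle and 42.4, 29.7 and 23.0 CPM under E2. The genotypes overlapped: 4 of 6 OVX Het-Met libraries lay below the lowest OVX WT library, while replicate 2 of the vehicle-treated OVX Het-Met mice stood at the height of the OVX WT libraries. The log2 fold change was -0.86 with a standard error of 0.24 and a 95% interval from -1.38 to -0.34, a difference of -45.0% (limma, unadjusted p = 0.00303, adjusted p = 0.136). With each library left out in turn it ranged from -1.07 to -0.65 (unadjusted p from 0.000118 to 0.0268). Without replicate 2 of the vehicle-treated OVX Het-Met mice the log2 fold change of Grin2b was -1.06 with an adjusted p of 0.0317 (limma), and 86 genes in all were then called. Reads of Grin2b and of any other gene come from whole tissue, in which fewer cells of a type and less RNA per cell cannot be told apart.

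Grin2a (chromosome 16, 9567898 to 9995560, minus strand) encodes the subunit whose share at synapses grows with maturation. Its level was 18.4 and 31.0 CPM in vehicle-treated and 25.7 and 22.3 CPM in E2-treated OVX WT libraries. In OVX Het-Met libraries it was 10.6, 22.4 and 16.2 CPM under vehicle and 19.8, 14.98 and 10.2 CPM under E2. Again 4 of 6 OVX Het-Met libraries lay below every OVX WT library, and the same replicate 2 under vehicle was the highest of the 6. The log2 fold change was -0.65 ± 0.20 (SE), a difference of -36.3% (limma, unadjusted p = 0.00526, adjusted p = 0.149). For Grin2a the range with each library left out was -0.83 to -0.47 (unadjusted p from 0.000945 to 0.0458).

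Gria2 (chromosome 3, 80681450 to 80802835, minus strand), the calcium-limiting AMPA receptor subunit, differed far less. OVX WT libraries had 963 and 1012 CPM under vehicle and 908 and 993 CPM under E2. OVX Het-Met libraries had 848.5, 899 and 901 CPM under vehicle and 941, 933 and 803 CPM under E2. Over both treatments the ranges overlapped, with 4 of 6 OVX Het-Met libraries below the lowest OVX WT library. The log2 fold change was -0.13 ± 0.06 (SE), a difference of -8.45% (limma, unadjusted p = 0.0413, adjusted p = 0.283). Without any one of OVX WT vehicle replicate 3, OVX WT E2 replicate 2, OVX Het-Met vehicle replicate 1 or OVX Het-Met E2 replicate 3, the unadjusted p of Gria2 was above 0.05, up to 0.186 (limma). The other 7 members had log2 fold changes between -0.07 (Grin1) and 0.01 (Gria4). Those of Gria1 and Gria4 average opposite signs: the genotype log2 fold change of Gria1 was 0.11 under vehicle and -0.12 under E2 (limma, unadjusted p of 0.153 and 0.129), with no overlap between genotypes in either treatment, and that of Gria4 was -0.13 and 0.14 (0.169 and 0.137), with overlap in both. The share of all genes whose groups do not overlap was not counted. In groups this small, a lack of overlap, here and below, is therefore given as a description only.

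**Figure D2:**
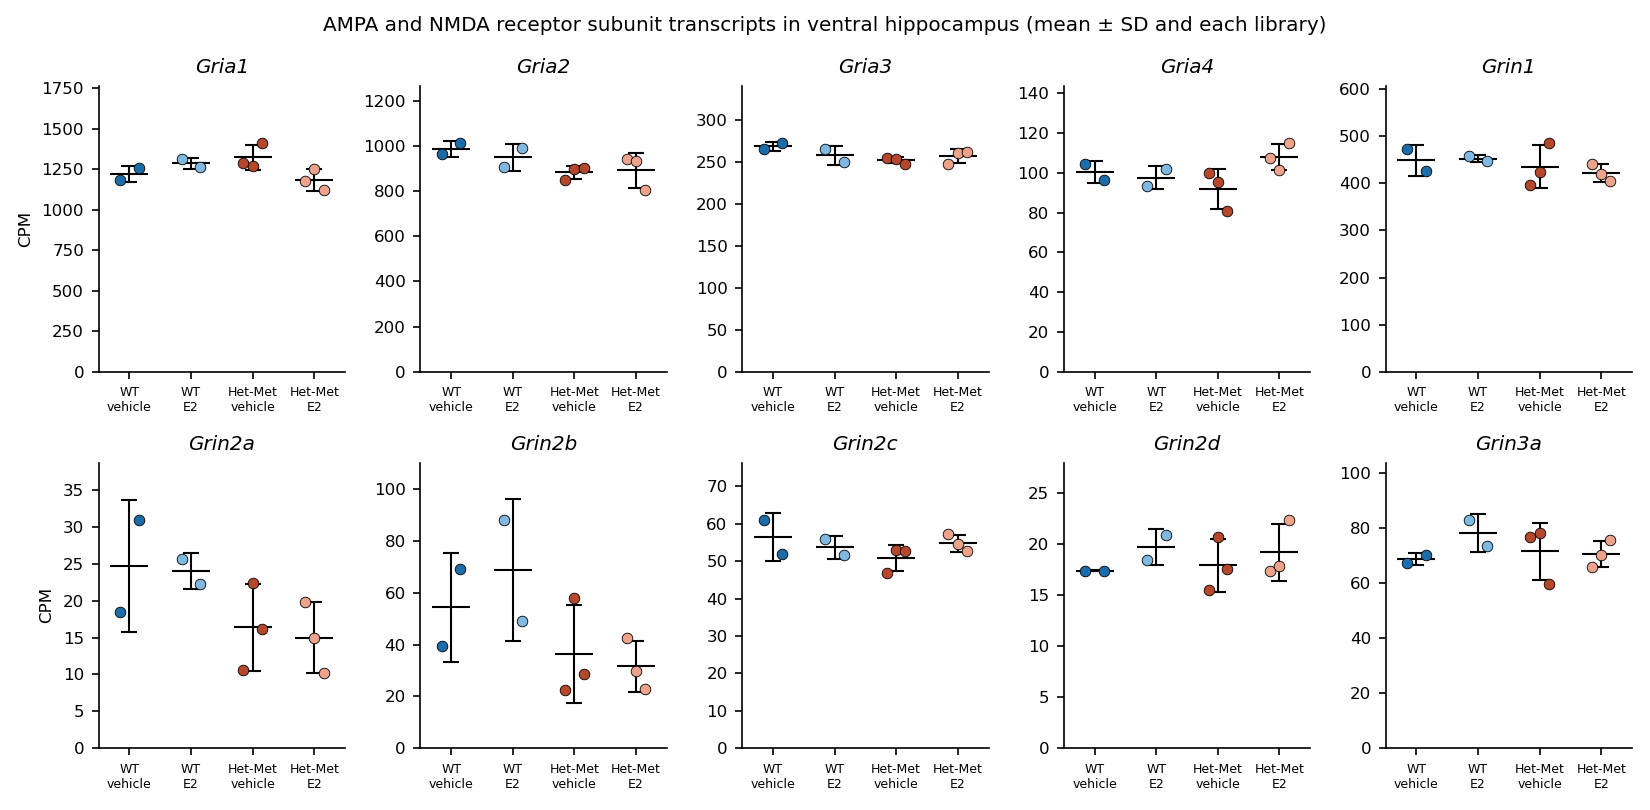
CPM of the 10 subunit transcripts in each library (points) by group, with the mean and SD of each group (line and bars) and each axis starting at 0. Grin2a and Grin2b lie lower in OVX Het-Met libraries with overlap between the genotypes, and the other 8 members are within 1.45-fold over all libraries.

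The genotypes were then compared within each treatment. With E2, 0 members passed the adjusted threshold (limma, background 0.0265%) and 2 members were lower at an unadjusted p under 0.05, against 11.7% of genes in either direction and 5.36% lower. For Grin2b the 2 OVX WT and 3 OVX Het-Met libraries did not overlap under E2, with means of 68.8 ± 27.5 (SD, n = 2) and 31.7 ± 9.86 CPM (SD, n = 3). Its log2 fold change was -1.09 ± 0.34 (SE; limma, unadjusted p = 0.00654, adjusted p = 0.341). Grin2a likewise did not overlap, at 24.01 ± 2.41 (SD, n = 2) and 14.98 ± 4.79 CPM (SD, n = 3), and had a log2 fold change of -0.71 ± 0.28 (SE; limma, unadjusted p = 0.0240, adjusted p = 0.379). With each library left out in turn the log2 fold change under E2 ranged from -1.51 to -0.67 for Grin2b and from -0.93 to -0.46 for Grin2a, below 0 throughout. Without OVX WT E2 replicate 1, which leaves 1 OVX WT library under E2, it was -0.67 for Grin2b (limma, unadjusted p = 0.127) and -0.61 for Grin2a (unadjusted p = 0.121). Without OVX Het-Met E2 replicate 3 it was -0.46 for Grin2a (limma, unadjusted p = 0.108).

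Under vehicle, 0 members passed either threshold, against 0.00663% of genes at the adjusted and 10.7% at the unadjusted p. Grin2b stood at 54.3 ± 21.1 (SD, n = 2) in OVX WT and at 36.4 ± 18.9 CPM in OVX Het-Met mice (n = 3), and its log2 fold change was -0.63 ± 0.34 (SE; limma, unadjusted p = 0.0856). Grin2a stood at 24.7 ± 8.88 (SD, n = 2) and 16.4 ± 5.91 CPM (SD, n = 3), with a log2 fold change of -0.59 ± 0.28 (SE; limma, unadjusted p = 0.0526). Single libraries moved both vehicle values: with each left out in turn the log2 fold change ranged from -1.04 to -0.23 for Grin2b (unadjusted p from 0.00377 to 0.589) and from -0.96 to -0.23 for Grin2a (0.00827 to 0.510; limma). The value was farthest from 0 without OVX WT vehicle replicate 1 and nearest to 0 without OVX WT vehicle replicate 3, and without OVX Het-Met vehicle replicate 2 the unadjusted p was 0.00377 for Grin2b and 0.00827 for Grin2a. Without OVX Het-Met vehicle replicate 1 the log2 fold change was -0.35 for Grin2b and -0.32 for Grin2a. Gria2 had a log2 fold change of -0.16 ± 0.08 (SE; limma, unadjusted p = 0.0635) under vehicle, where its 2 OVX WT libraries lay above its 3 OVX Het-Met libraries. The difference between the treatments in the genotype effect was -0.45 ± 0.49 (SE) for Grin2b and -0.11 ± 0.40 (SE) for Grin2a on the log2 scale (limma, unadjusted p of 0.366 and 0.777), so the larger value under E2 was within the error.

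**Figure D3:**
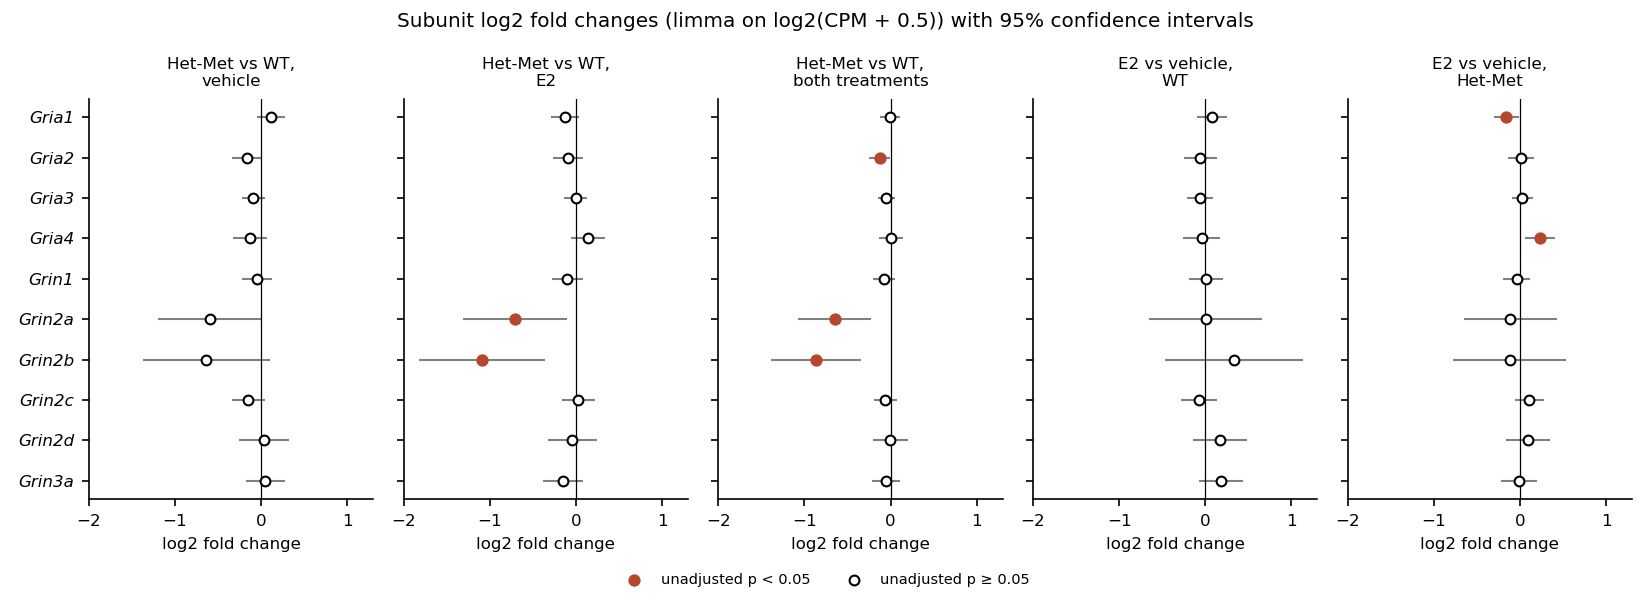
Log2 fold changes of the 10 subunits with 95% confidence intervals in 5 comparisons, filled where the unadjusted limma p was under 0.05. Grin2a and Grin2b have the lowest values and the widest intervals in the 3 genotype comparisons, and Gria1 and Gria4 lie on opposite sides of 0 for E2 in OVX Het-Met mice.

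Grin2b and Grin2a moved together from library to library. The Pearson r of their log2(CPM + 0.5) was 0.940 over the 10 libraries, the highest of any pair of members; Gria2 was most like Grin2a (r = 0.800), Grin1 and Grin2c were most like each other (0.615), and for Gria1, Gria3, Gria4, Grin2d and Grin3a no other member exceeded an r of 0.394. These points share their libraries, depth and genotype groups, and the values are given as a description. The ratio of Grin2a to Grin2b CPM within a library was 0.415 ± 0.0826 (SD, n = 4) in OVX WT and 0.472 ± 0.059 (SD, n = 6) in Het-Met libraries, with overlapping ranges. Grin2b relative to Grin1 ranged from 0.0833 to 0.193 in OVX WT and from 0.0566 to 0.137 in OVX Het-Met libraries. Among all other genes tested, those most like Grin2b were Tmem178b (r = 0.977), Sytl5 (0.968), Zbtb20 (0.964), Dnajb14 (0.961) and Garem (0.961). Their longest transcripts have 3.18, 2.30, 26.9, 9.48 and 4.93 kb in that order, so both short and long transcripts were among them.

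The 3 members at an unadjusted p under 0.05 between genotypes were also the 3 members with a transcript over 10 kb. Gria2 has a longest coding transcript of 10.4 kb, and the 7 other members lie between 4.28 kb (Grin1) and 7.49 kb (Grin3a). Among all genes tested with a known length, the median log2 fold change between genotypes was 0.11 for the 3626 genes up to 2 kb, 0.03 for the 8115 genes from 2 to 5 kb, -0.07 for the 2857 genes from 5 to 10 kb and -0.16 for the 379 genes over 10 kb, of which 48.8% were lower in OVX Het-Met mice at an unadjusted p under 0.05 (limma). The level of long transcripts in a library, taken as the median log2 deviation of the 376 genes over 10 kb outside the members, was 0.0554 and 0.095 in vehicle-treated and 0.138 and 0.0823 in E2-treated OVX WT libraries. It was -0.193, -0.0166 and -0.0326 in vehicle-treated and 0.0325, -0.0984 and -0.0493 in E2-treated OVX Het-Met libraries, so that it did not overlap between genotypes.

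Over the 10 libraries the log2 level of Grin2b followed this level with a Pearson r of 0.843, Grin2a with 0.835, Gria2 with 0.620, Grin1 with 0.582 and Grin2c with 0.555, and the other 5 members with values between -0.078 and 0.311. With the level of long transcripts as a covariate, chosen after seeing the data, the genotype log2 fold change of Grin2b was 0.061 (limma, unadjusted p = 0.845) and that of Grin2a 0.10 (unadjusted p = 0.678), and 0 members had an unadjusted p under 0.05. Of all 15081 genes, 517 had an unadjusted p under 0.05 in that fit, against 2503 without the covariate (limma). With a trend on transcript length removed from each library, the genotype log2 fold change was -0.62 for Grin2b (limma, unadjusted p = 0.0129) and -0.47 for Grin2a (unadjusted p = 0.0187), and 0.0077 for Gria2. In this second fit 1351 of the 15081 genes had an unadjusted p under 0.05 (limma). Because the level of long transcripts separates the genotypes, its share in the differences of Grin2b and Grin2a and that of the genotype cannot be told apart in these libraries.

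**Figure D4:**
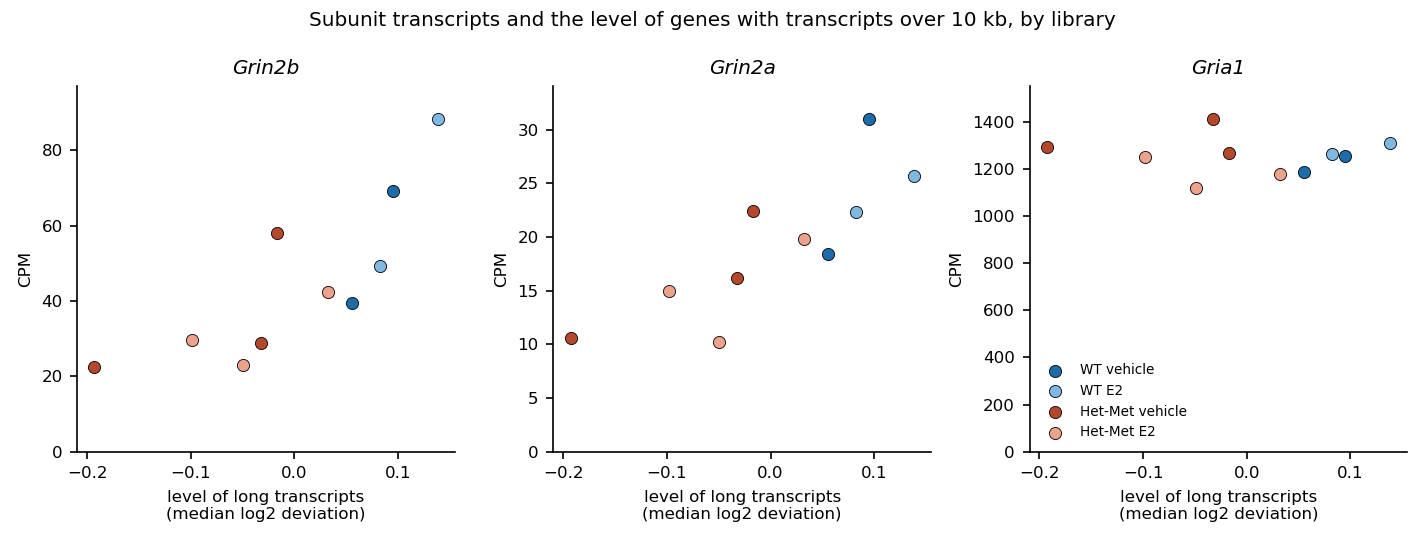
CPM of Grin2b, Grin2a and Gria1 in each of the 10 libraries against the median log2 deviation of the 376 other genes with transcripts over 10 kb. The 4 OVX WT libraries lie farthest to the right (0.0554 to 0.138), Grin2b and Grin2a have an r of 0.843 and 0.835 with this level, and Gria1 one of -0.033.

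E2 add-back was compared with vehicle within each genotype. In OVX WT mice 0 members passed the adjusted threshold (limma, background 0.0133%) and 0 had an unadjusted p under 0.05 (background 4.04%). The log2 fold changes there lay between -0.07 (Grin2c) and 0.33 (Grin2b, with a 95% interval from -0.47 to 1.14), and the smallest unadjusted p was 0.140 (limma). In OVX Het-Met mice 0 members passed the adjusted threshold, as did 0 of all genes (0%), and 2 members had an unadjusted p under 0.05 against a background of 5.45%. They were AMPA receptor subunits with opposite signs, Gria4 higher and Gria1 lower.

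Gria4 (chromosome 9, 4417896 to 4796234, minus strand) encodes a fast AMPA receptor subunit known from interneurons and thalamus. It had 100, 95.3 and 80.7 CPM in vehicle-treated and 108, 101 and 115 CPM in E2-treated OVX Het-Met libraries. All 3 E2 libraries lay above all 3 vehicle libraries, and replicate 3 was the lowest under vehicle and the highest under E2. The log2 fold change was 0.23 ± 0.08 (SE), a difference of 17.6% (limma, unadjusted p = 0.0121, adjusted p = 0.784). In OVX WT mice Gria4 had 104 and 96.6 CPM under vehicle and 93.6 and 102 CPM under E2, which overlapped.

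Gria1 (chromosome 11, 57011387 to 57330244, plus strand), the main subunit inserted into synapses during long-term potentiation, had 1290, 1268 and 1410 CPM in vehicle-treated and 1179, 1252 and 1119 CPM in E2-treated OVX Het-Met libraries. All 3 E2 libraries lay below all 3 vehicle libraries, by a log2 fold change of -0.16 ± 0.07 (SE), a difference of -10.5% (limma, unadjusted p = 0.0326, adjusted p = 0.872). In OVX WT mice it had 1185 and 1256 CPM under vehicle and 1311 and 1263 CPM under E2, and both E2 libraries were above both vehicle libraries by a log2 fold change of 0.08 ± 0.08 (SE; limma, unadjusted p = 0.374). Over the 10 libraries Gria1 and Gria4 had a Pearson r of -0.951, given as a description. With each library left out in turn the E2 log2 fold change in OVX Het-Met mice ranged from -0.20 to -0.11 for Gria1 and from 0.14 to 0.30 for Gria4, with no change of sign. It was nearest to 0 without replicate 3 of the vehicle group, at -0.11 for Gria1 (limma, unadjusted p = 0.122) and 0.14 for Gria4 (unadjusted p = 0.0806), and without replicate 3 of the E2 group it was -0.12 (unadjusted p = 0.135) and 0.19 (unadjusted p = 0.0573). Without replicate 1 of the E2 group Gria1 kept a log2 fold change of -0.16 at an unadjusted p of 0.0709 (limma).

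The interaction of genotype and E2 had 0 members at the adjusted threshold, against 0.0729% of genes, and the same 2 members at an unadjusted p under 0.05, against 5.42%. On the log2 scale it was -0.24 ± 0.11 (SE) for Gria1 (limma, unadjusted p = 0.0440, adjusted p = 0.884) and 0.28 ± 0.13 (SE) for Gria4 (unadjusted p = 0.04996, adjusted p = 0.917). With each library left out in turn the interaction ranged from -0.28 to -0.19 for Gria1 and from 0.18 to 0.34 for Gria4, with no change of sign. Of these fits with fewer libraries, neither gene had an unadjusted p under 0.05 without OVX WT replicate 1 of either treatment, OVX Het-Met vehicle replicate 3 or OVX Het-Met E2 replicate 1 or 3, nor did Gria1 without OVX WT E2 replicate 2, with values up to 0.141 for Gria1 and 0.182 for Gria4 (limma). Averaged over both genotypes, E2 gave 0 members at either threshold, with backgrounds of 0.00663% and 3.22%, and log2 fold changes between -0.05 (Grin2a) and 0.14 (Grin2d).

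Markers of regions and cell types also differed between the 2 replicates 3 of the OVX Het-Met mice, which held the extreme Gria1 and Gria4 values. The summed level of 6 thalamus markers was 182, 179 and 150 CPM in vehicle-treated and 174, 195 and 215 CPM in E2-treated OVX Het-Met libraries, and it was lowest and highest in the same libraries as Gria4. All 6 were detected, the most abundant being Calb2 at a mean of 62.4 CPM and the lowest Tcf7l2 at a mean of 8.86 CPM, so Calb2 weighs most in the sum. Reads from whole tissue do not show whether these genes were expressed in thalamus or in cells of the hippocampus. The 8 markers of glutamatergic principal neurons, led by Camk2a, summed to 7497, 8350 and 9105 CPM under vehicle and 8102, 8182 and 7472 CPM under E2, and the 7 dentate granule cell markers, led by Calb1, to 393, 400 and 523 CPM under vehicle and 397, 458 and 396 CPM under E2. The 9 interneuron markers, led by Gad1, summed to 1180, 1182 and 979 CPM and to 1198, 1124 and 1150 CPM in the same order. Markers of the choroid plexus, 10 of 10 detected and led by Ttr, summed to 347 and 1585 CPM in vehicle-treated and 3575 and 2678 CPM in E2-treated OVX WT libraries, and to 4052, 2092 and 2689 CPM and 2229, 775 and 512 CPM in the OVX Het-Met libraries. The part of dissection and tissue makeup in the Gria1 and Gria4 values was not tested.

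The labelled tissue held the markers of the hippocampal fields in every library. CA1 pyramidal markers summed to between 1075 and 1193 CPM and CA3 pyramidal markers to between 295 and 334 CPM over the 10 libraries. Between genotypes, principal neuron markers ranged from 8077 to 8257 CPM in OVX WT and from 7472 to 9105 CPM in OVX Het-Met libraries, and pan-neuronal markers from 7796 to 8144 and from 7621 to 8503 CPM. The ranges of astrocyte (2655 to 2955 and 2726 to 2950 CPM), oligodendrocyte (3994 to 5011 and 3932 to 4913), oligodendrocyte precursor (250.5 to 279.7 and 244 to 263), microglia (350 to 377 and 358 to 413), endothelium (189.9 to 237 and 181 to 232) and meninges markers (265 to 404 and 273 to 396) also overlapped. So did those of thalamus (156 to 180 and 150 to 215) and interneuron markers (1098 to 1226 and 979 to 1198). Single markers differed by genotype at an unadjusted p under 0.05 (limma, over both treatments, against 16.6% of all genes): of the 6 thalamus markers 3 were higher and 1 lower in OVX Het-Met mice, with a median log2 fold change of 0.25, and of the 7 microglia markers 2 were higher, with a median of 0.09. The other 12 lists had 0 to 2 such genes each over both treatments. Within a treatment the choroid plexus markers differed in opposite directions: 10 of 10 were higher in OVX Het-Met mice under vehicle (median log2 fold change 1.68) and 10 of 10 lower under E2 (median -1.66), each at an unadjusted p under 0.05, against 10.7% and 11.7% of all genes, and with 0 at the adjusted threshold (limma). For the interaction, 1 of 5 CA1 pyramidal and 1 of 6 meninges markers passed the adjusted threshold (limma, adjusted p of 0.0333 and 0.0454), against 0.0729% of genes. The smallest unadjusted p of a CA1 pyramidal marker for E2 in OVX Het-Met mice was 1.50e-05 (limma, adjusted p = 0.159). The part of all these cell types in the subunit values, those of Grin2a and Grin2b among them, was not tested.

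The remaining 5 subunits did not pass either threshold in any comparison of the main fit. Without OVX Het-Met vehicle replicate 3, Grin1 was lower between genotypes over both treatments at an unadjusted p of 0.0406 (limma). In that same fit 1 of these 5 had an interaction below 0 at an unadjusted p under 0.05 (limma). Gria3, an AMPA receptor subunit that pairs with Gria2, had 268 ± 5.15 and 257 ± 11.7 CPM in OVX WT mice (SD, n = 2 each, vehicle and then E2) against 252 ± 3.67 and 257 ± 7.89 CPM with the Met allele (SD, n = 3 each). Grin1 had 449 ± 33.0, 452 ± 7.54, 435 ± 45.6 and 422 ± 18.5 CPM in the same order. Grin2c, known mainly from cerebellum and glia, had 56.6 ± 6.42, 53.8 ± 3.09, 50.9 ± 3.47 and 54.8 ± 2.27 CPM. Grin2d, known from interneurons, had 17.4 ± 0.034, 19.7 ± 1.76, 17.9 ± 2.63 and 19.2 ± 2.78 CPM. Grin3a, whose product lowers the calcium permeability of NMDA receptors, had 68.7 ± 2.22, 78.1 ± 6.78, 71.5 ± 10.4 and 70.4 ± 4.76 CPM. Under vehicle the OVX WT libraries of Gria3 (265 and 272 CPM) lay above the OVX Het-Met libraries (254, 254 and 247 CPM), with a log2 fold change of -0.09 ± 0.06 (SE; limma, unadjusted p = 0.159). In OVX WT mice both E2 libraries lay above both vehicle libraries for Grin3a (82.9 and 73.3 against 67.1 and 70.2 CPM), a difference of 13.5% (limma, unadjusted p = 0.140), and for Grin2d (18.5 and 20.97 against 17.4 and 17.4 CPM), a difference of 12.7% (unadjusted p = 0.260). In OVX Het-Met mice the vehicle and E2 libraries of both genes overlapped. Summed over the 4 AMPA receptor subunits the level was 2585 ± 50.7 in OVX WT (SD, n = 4) and 2495 ± 112 CPM with the Met allele (SD, n = 6), and over the 6 NMDA receptor subunits 684 ± 30.4 and 621 ± 38.2 CPM.

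Among proteins that assemble with AMPA receptors, 19 of 19 genes were tested. Between genotypes over both treatments 0 passed the adjusted threshold, 3 were lower and 1 higher at an unadjusted p under 0.05, against 16.6% of all genes in either direction and 7.27% lower, and the median log2 fold change was 0.01. Frrs1l, needed for the assembly of AMPA receptors before they leave the endoplasmic reticulum, was at 204 CPM in OVX WT and 157 CPM in OVX Het-Met mice, with a log2 fold change of -0.38 ± 0.09 (SE; limma, unadjusted p = 0.000682, adjusted p = 0.120). Its 4 OVX WT libraries (176 to 222 CPM) lay above its 6 OVX Het-Met libraries (124 to 174 CPM). The auxiliary subunits Shisa6 and Cacng8 had log2 fold changes of -0.18 each (limma, unadjusted p of 0.0106 and 0.0159). With E2 in OVX Het-Met mice, 0 passed the adjusted threshold and 2 were higher and 1 lower at an unadjusted p under 0.05, against 5.45% of all genes. The auxiliary subunits Cacng3 (log2 fold change 0.26, unadjusted p = 0.00269) and Gsg1l (0.34, unadjusted p = 0.0104) had the smallest p of the list (limma), and the lower gene was Cnih2 (-0.19, unadjusted p = 0.0192), named after its value was seen.

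Of the scaffold and trafficking genes, 14 of the 15 listed were in the table and tested. Between genotypes 0 passed the adjusted threshold, 5 were lower and 0 higher at an unadjusted p under 0.05, beside 7.27% of all genes lower, and the median was -0.06. Nptxr, the neuronal pentraxin receptor that clusters AMPA receptors, was at 20.3 CPM in OVX WT and 10.6 CPM in OVX Het-Met mice, a log2 fold change of -0.86 ± 0.20 (SE; limma, unadjusted p = 0.00058, adjusted p = 0.120), with overlapping ranges (10.3 to 28.1 and 7.32 to 15.9 CPM). The NMDA receptor scaffold Dlg2 and the auxiliary subunit Neto1 had log2 fold changes of -0.19 and -0.17 (limma, unadjusted p of 0.00644 and 0.0137). Frrs1l, Shisa6, Nptxr, Dlg2 and Neto1 have longest transcripts between 5.01 and 8.35 kb, a length class whose median was -0.07. Of the genes in that class, 19.9% were lower and 1.33% higher at an unadjusted p under 0.05 (limma). Cacng8 has 1.90 kb. For E2 in OVX Het-Met mice Dlg1 (0.13, unadjusted p = 0.0406) and Grip2 (0.24, unadjusted p = 0.0471) had the smallest p (limma), with 0 at the adjusted threshold. At an unadjusted p under 0.05, 2 of the 14 genes were higher and 0 lower, against 5.45% of all genes in either direction.

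Kinases and phosphatases that act on the receptors had 14 of 14 genes tested, 0 at the adjusted threshold, 1 lower and 1 higher at an unadjusted p under 0.05 between genotypes (16.6% of all genes in either direction), and a median of 0.03. These were Prkca, a protein kinase C (-0.17, unadjusted p = 0.0143), and Cdk5 (0.14, unadjusted p = 0.0303), and the calcineurin subunit Ppp3ca had 0.12 (unadjusted p = 0.100; limma). The smallest p for E2 in OVX Het-Met mice were those of Camk2d (0.28, unadjusted p = 0.0463) and the phosphatase gene Ptpn5 (0.14, unadjusted p = 0.0613; limma). Of the adenosine deaminases that edit receptor RNA, 3 of 3 were tested, with 0 at the adjusted threshold between genotypes over both treatments. At an unadjusted p under 0.05, 1 was lower, against 16.6% of all genes in either direction and 7.27% lower (limma). The lower gene was Adar (-0.14, unadjusted p = 0.0112), while Adarb1, which edits the Gria2 site shown above, had -0.06 (unadjusted p = 0.267) and Adarb2 0.08 (unadjusted p = 0.279; limma). With E2 in OVX WT mice Adar and Adarb1 had log2 fold changes of 0.05 each, with unadjusted p of 0.479 and 0.584 (limma).

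Genes for the supply and uptake of glutamate and co-agonists had 11 of 12 tested, and between genotypes 0 at the adjusted threshold, 1 lower and 0 higher at an unadjusted p under 0.05 (16.6% of all genes in either direction), with a median of -0.0036. The vesicular glutamate transporter Slc17a6, which is also among the 6 thalamus markers, had 30.4 ± 2.90 and 23.5 ± 1.71 CPM in OVX WT mice (SD, n = 2 each, vehicle and then E2) against 18.3 ± 2.88 and 29.0 ± 2.98 CPM with the Met allele (SD, n = 3 each). Its E2 log2 fold change was 0.65 ± 0.11 (SE; limma, unadjusted p = 4.21e-05, adjusted p = 0.212) in OVX Het-Met mice and -0.37 ± 0.14 (SE; unadjusted p = 0.0197) in OVX WT mice. Between genotypes it had -0.72 under vehicle (limma, unadjusted p = 4.61e-05, adjusted p = 0.139) and 0.29 under E2 (unadjusted p = 0.0358), with an interaction of 1.02 ± 0.18 (SE; unadjusted p = 4.85e-05, adjusted p = 0.0522), so that its -0.21 over both treatments (unadjusted p = 0.0316) averages opposite signs. Over both treatments the transporter Slc17a8 had 0.25 (unadjusted p = 0.0957) and the serine racemase Srr, which makes the NMDA receptor co-agonist D-serine, -0.09 (unadjusted p = 0.101; limma).

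**Figure D5:**
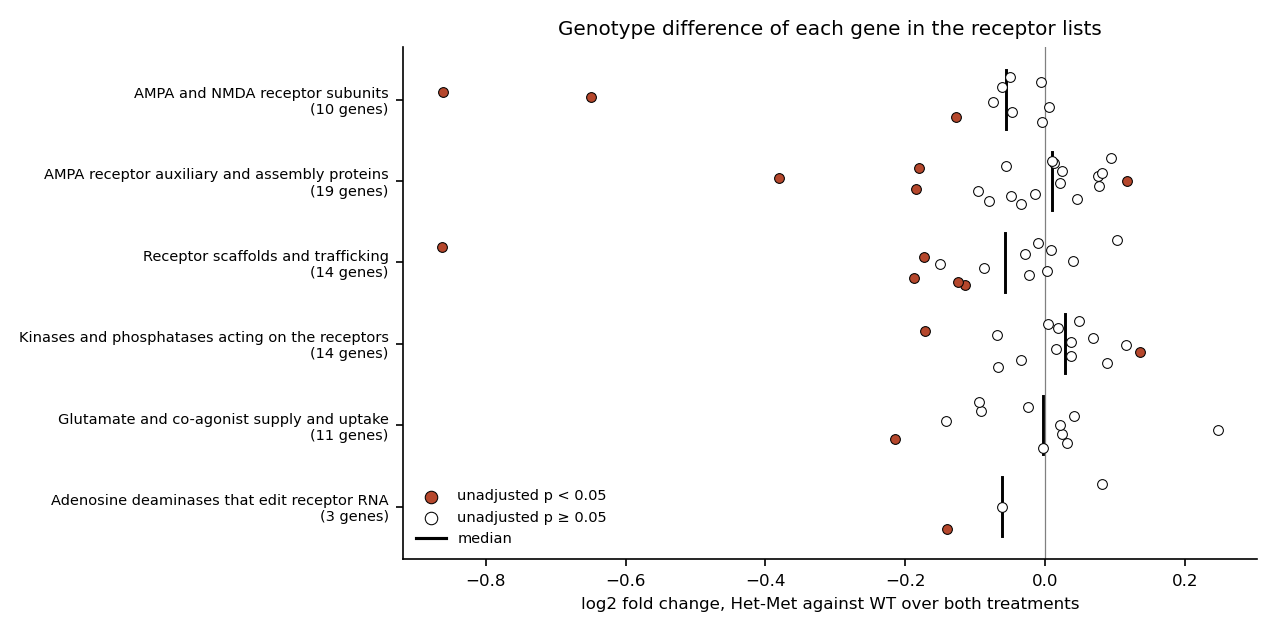
Genotype log2 fold change over both treatments of each gene in the subunit list and the 5 receptor lists, filled where the unadjusted limma p was under 0.05, with the median of each list as a line. Medians lie between -0.06 and 0.03, and Grin2b and Nptxr (both -0.86) and Grin2a (-0.65) are the lowest points.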

How the data were processed

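The authors trimmed and filtered the 75-bp single-end reads of a stranded kit, aligned them to mm10 with TopHat2 and counted them on genes; the deposited CPM are reads per 1000000 reads counted, and the counting settings are not given in the sources used here. In every library 100% of values came out as whole reads (tolerance 0.01). Replicates differed by more than sampling noise (chi-square per degree of freedom 3.40 to 14.1). For genes whose mean reached 0.5 CPM, log2(CPM + 0.5) was fitted with limma 3.58.1 in R 4.3.3 (4 group means, empirical Bayes with a trend, prior and residual degrees of freedom 8.90 and 6), two-sided, with Benjamini-Hochberg adjustment over all 15081 genes. Fold changes on this scale understate those of low genes. A call needed an adjusted p under 0.05 and a fold change above 1.3. The test was checked on simulated data with changed genes. That simulation gave all genes the same dispersion and had no length trend, so it does not show how the test performs with the spread and length trend found here. The members, the 5 receptor lists and the marker lists were chosen with earlier results of these data known. All 10 members were named, with every library printed for Gria2 and for each member at an unadjusted p under 0.05 in any comparison; from each list, the 3 genes of smallest p between genotypes and the 2 of smallest p for E2. Alternatives were a pseudocount of 0.1 or 1, testing all genes or those whose mean reached 2 CPM, other scalings (TMM, median of ratios, quantile), a replicate block, the compared libraries alone, no fold change limit, edgeR 4.0.16 and DESeq2 1.42.0 on the recovered reads, removal of a length trend and each library left out. Between genotypes over both treatments edgeR called 4 and DESeq2 88 genes, 0 of them members. Lengths and positions came from GENCODE vM21 (23376 of 24421 symbols matched directly, 670 by an older symbol). Figures used matplotlib 3.10.9.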

Additional observations from a re-analysis of the deposited data

How the results depend on the processing

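Of 35 member differences followed, 14 kept their sign under every alternative run for them (13 for the comparisons within a treatment or genotype, 12 for the others) and with each of the 10 libraries left out, and 0 members were called at the adjusted p under any setting except for Grin2b between genotypes over both treatments without replicate 2 of the vehicle-treated OVX Het-Met mice (members called with a library left out, 0 to 1). Genes called in all between genotypes over both treatments ranged from 0 to 88 over the settings (0 to 295 with no fold change limit), under E2 from 0 to 52, under vehicle from 0 to 38, and for the interaction from 0 to 71. For E2 they ranged from 0 to 16 in OVX WT mice, from 0 to 6 in OVX Het-Met mice and from 0 to 5 over both genotypes. Without OVX Het-Met E2 replicate 1, 45 genes were called between genotypes under E2, 16 for E2 in OVX WT mice and 71 for the interaction (46 without OVX WT vehicle replicate 3). Between genotypes under vehicle, the number of members at an unadjusted p under 0.05 went from 0 to 1 lower with no filter, median-of-ratios scaling, quantile normalization or DESeq2, to 1 higher (Gria1) with the length trend removed, to 2 lower with the replicate block or the compared libraries alone, and was 0 to 2 with a library left out. Under E2 it went from 2 to 0 with no filter or the long-transcript covariate, to 1 with DESeq2, and was 0 to 2 with a library left out. Over both treatments it went from 3 to 1 with no filter, 2 with the length trend removed and 0 with the covariate, and was 2 to 4 with a library left out. For E2 in OVX Het-Met mice it went from 2 to 1 with the replicate block or the compared libraries alone, and was 0 to 2 with a library left out. For the interaction it went from 2 to 1 with a pseudocount of 0.1, a filter at 2 CPM, median-of-ratios scaling or the length trend removed, to 0 with no filter, quantile normalization or the replicate block, and was 0 to 3 with a library left out. The number of all genes at that unadjusted p moved too. Between genotypes under vehicle it was 1611 of 15081, and 1005 with the length trend removed. Under E2 it was 1758, 577 with the covariate, 1386 with DESeq2 and 1868 of 24421 with no filter. Over both treatments it was 2503, 1351 with the length trend removed, 517 with the covariate and 2731 of 24421 with no filter. For E2 in OVX Het-Met mice it was 822, and 753 with the replicate block. The replicate numbers were not treated as pairs in the main fit. The 12 same-numbered pairs had correlations of their deviations from the group mean between -0.172 and 0.0826. In a group of 2 libraries these deviations mirror each other, so the correlations cannot exclude a pairing. The causes of these shifts were not tested.

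The reversed signs belonged to differences with an unadjusted p above 0.05, apart from those of Grin2a, Grin2b and Gria2 between genotypes. With the long-transcript covariate the genotype log2 fold change was 0.18 (Grin2a) and 0.31 (Grin2b) under vehicle and 0.028 (Grin2a) under E2, and over both treatments 0.013 for Gria1, -0.099 for Gria4, 0.048 for Grin1, 0.10 for Grin2a, 0.061 for Grin2b, 0.057 for Grin2c and 0.11 for Grin2d. With the length trend removed it was 0.031 for Gria2 under E2, and over both treatments 0.042 for Gria1, 0.0077 for Gria2, 0.037 for Grin2d and 0.039 for Grin3a. For Gria4 over both treatments it was -0.012 with TMM scaling, -0.017 with median-of-ratios scaling, -0.010 with edgeR and -0.015 with DESeq2. For E2 in OVX WT mice Grin2a had -0.10 with the replicate block, -0.038 with edgeR, -0.041 with DESeq2, -0.024 with the length trend removed and -0.17 with the covariate. For E2 in OVX Het-Met mice Gria2 had -0.032 with the length trend removed and -0.0023 with the covariate. With a library left out, the genotype difference over both treatments ranged from -0.027 to 0.017 for Gria1, -0.026 to 0.051 for Gria4, -0.062 to 0.043 for Grin2d and -0.094 to 0.013 for Grin3a. That of E2 in OVX WT mice ranged from -0.12 to 0.0079 for Gria2, -0.10 to 0.017 for Gria4, -0.36 to 0.37 for Grin2a and -0.083 to 0.75 for Grin2b. In OVX Het-Met mice it ranged from -0.028 to 0.087 for Gria2, -0.38 to 0.14 for Grin2a and -0.40 to 0.27 for Grin2b, and the interaction of Grin2a from -0.48 to 0.25. Where a group was left with a single library, limma took that library to vary like the other groups.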
